A study of Homo sapiens with 12 samples.

Results

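The H3K27ac summit lists of Huh7 cells at 0 and 15 µM choline were compared, with 1 library per dose. Every line on chromosomes 1 to 22 and X was taken, which gave 37946 summits at 0 µM and 29305 at 15 µM, or 67251 of the 759609 summits in the 4 ChIP-seq lists used here. Huh7 is a hepatocellular carcinoma line, and both libraries are labelled wild type. They were made with an H3K27ac antibody from Active Motif. Both cultures were kept for 48 h in a choline-free DMEM in which B-27 took the place of serum, with choline chloride added at 15 µM or left out. The other 8 samples of the series were not analysed here. With 1 library per dose there is no replicate spread, so each difference is between 2 libraries and carries no test. Intervals in brackets are exact Clopper-Pearson 95% intervals. They cover counting error only, and treat the summits of a locus as independent although they are not.

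A summit is the point of highest signal that a peak caller lists inside an enriched region. H3K27ac, the acetylation of lysine 27 on histone H3, is laid down by p300 and CBP at active promoters and enhancers. In liver cells it is dense over the enhancers of plasma protein genes and of the transcription factors that hold the hepatocyte programme. Choline feeds phosphatidylcholine synthesis and, through betaine, the methionine cycle that supplies methyl groups.

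Liver markers carried summits in both lists. The 12 hepatocyte markers had 150 summits at 0 µM and 181 at 15 µM within 50 kb of their gene ends, and each of the 12 had summits at both doses. Markers of other lineages had few. The 6 blood markers had 4 and 2, the 6 fibroblast and stellate markers 11 and 7, the 4 neuron markers 2 and 3, and the 3 muscle markers none. The 9 endothelial summits at 15 µM and the 6 at 0 µM all lay at PECAM1, with VWF, CDH5, KDR and TEK at 0.

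The promoters and microRNAs that the results below turn on are shown first. Sequences are those of RefSeq for GRCh38.p14, and each promoter runs from 250 bases before to 50 after the annotated gene start. Capitals mark matches, on either strand, to the 10 motifs searched, and overlapping matches run together. The motifs were TATAAA (the TATA box), CCAAT (bound by NF-Y), GGGCGG (the GC box), CACCC (of the KLF family), CACGTG (the E-box), TGACGTCA (the cAMP response element), TGANTCA (of AP-1), CCGGAAGT (of the ETS family), and those of NRF1 and HNF1. The first 4 promoters had a high-scoring summit at 0 µM and none at 15 µM within 2 kb, and the next 3 the reverse.
TUBA1B: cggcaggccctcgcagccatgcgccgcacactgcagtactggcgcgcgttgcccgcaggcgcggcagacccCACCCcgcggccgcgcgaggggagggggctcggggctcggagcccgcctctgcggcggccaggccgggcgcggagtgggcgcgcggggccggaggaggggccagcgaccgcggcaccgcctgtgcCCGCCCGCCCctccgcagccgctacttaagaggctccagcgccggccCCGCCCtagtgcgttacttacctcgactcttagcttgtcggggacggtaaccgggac
CTR9: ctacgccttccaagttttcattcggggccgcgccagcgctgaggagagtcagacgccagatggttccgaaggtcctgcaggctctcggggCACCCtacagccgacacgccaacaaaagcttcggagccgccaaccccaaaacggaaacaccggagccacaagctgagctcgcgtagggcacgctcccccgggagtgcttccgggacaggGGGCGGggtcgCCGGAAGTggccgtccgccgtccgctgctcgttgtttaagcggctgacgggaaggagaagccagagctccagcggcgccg
NELFA: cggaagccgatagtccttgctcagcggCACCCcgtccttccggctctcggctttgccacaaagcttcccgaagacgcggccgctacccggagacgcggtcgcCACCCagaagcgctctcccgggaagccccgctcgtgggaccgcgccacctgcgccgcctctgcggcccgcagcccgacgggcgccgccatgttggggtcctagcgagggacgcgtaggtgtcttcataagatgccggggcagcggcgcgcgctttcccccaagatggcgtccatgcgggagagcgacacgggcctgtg
DUSP1: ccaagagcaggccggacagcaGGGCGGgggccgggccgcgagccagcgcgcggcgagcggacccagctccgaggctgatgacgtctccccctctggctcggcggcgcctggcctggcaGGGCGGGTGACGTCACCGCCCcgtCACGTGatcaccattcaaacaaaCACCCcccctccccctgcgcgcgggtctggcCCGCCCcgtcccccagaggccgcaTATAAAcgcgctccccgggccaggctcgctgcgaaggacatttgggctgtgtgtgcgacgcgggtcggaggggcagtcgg
SRRM1: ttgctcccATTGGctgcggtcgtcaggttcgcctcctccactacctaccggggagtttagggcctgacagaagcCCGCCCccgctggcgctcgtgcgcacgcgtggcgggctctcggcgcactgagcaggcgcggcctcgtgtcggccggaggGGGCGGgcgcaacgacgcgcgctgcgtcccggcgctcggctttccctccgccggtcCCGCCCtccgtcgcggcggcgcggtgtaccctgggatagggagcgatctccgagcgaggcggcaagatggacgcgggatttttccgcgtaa
ID1: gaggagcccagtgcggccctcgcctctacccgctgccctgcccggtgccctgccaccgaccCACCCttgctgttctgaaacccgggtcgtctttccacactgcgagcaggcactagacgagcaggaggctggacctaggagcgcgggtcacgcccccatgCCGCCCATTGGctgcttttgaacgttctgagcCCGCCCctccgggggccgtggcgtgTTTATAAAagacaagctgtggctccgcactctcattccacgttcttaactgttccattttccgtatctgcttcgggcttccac
NQO1: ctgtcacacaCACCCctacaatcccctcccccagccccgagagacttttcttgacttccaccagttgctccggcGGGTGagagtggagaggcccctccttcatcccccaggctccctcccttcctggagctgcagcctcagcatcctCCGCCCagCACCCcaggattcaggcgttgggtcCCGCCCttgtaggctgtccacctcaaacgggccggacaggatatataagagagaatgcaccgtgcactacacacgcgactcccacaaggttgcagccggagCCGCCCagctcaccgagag

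TUBA1B, an alpha-tubulin gene, lies on the minus strand at chr12:49131346-49131645. Its promoter has a GC content of 77.0% and holds CACCC and repeated GGGCGG matches. CTR9, a subunit of the PAF1 elongation complex, lies on the plus strand at chr11:10750996-10751295, with a CCGGAAGT match. NELFA, a subunit of the factor that pauses RNA polymerase II, lies on the minus strand at chr4:2008925-2009224. DUSP1, a MAP kinase phosphatase, lies on the minus strand at chr5:172771146-172771445 and holds TATAAA and TGACGTCA matches. SRRM1, a splicing coactivator, lies on the plus strand at chr1:24643052-24643351. ID1, which binds and blocks helix-loop-helix factors, lies on the plus strand at chr20:31605039-31605338 and also holds a TATAAA match. NQO1, a quinone reductase, lies on the minus strand at chr16:69726511-69726810.

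The mature microRNAs come from 5 hairpins described below, whose windows held more summits at 15 µM (miR-21, miR-29b and miR-122, the last the abundant liver microRNA) or fewer (miR-33b and miR-320c). Capitals mark the seed, bases 2 to 8. No 2 of the 5 share a seed.
hsa-miR-21-5p: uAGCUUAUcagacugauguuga
hsa-miR-29b-3p: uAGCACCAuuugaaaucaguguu
hsa-miR-122-5p: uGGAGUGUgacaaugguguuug
hsa-miR-33b-5p: gUGCAUUGcuguugcauugc
hsa-miR-320c: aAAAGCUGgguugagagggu

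The shortfall of the 15 µM list was uneven along genes. The ratio of list lengths, 15 over 0 µM, was 0.772, so that 15 µM summits made up 43.6% of both lists together. Within 1 kb of a coding gene end there were 6273 summits at 0 µM and 3470 at 15 µM, a 15 µM share of 35.6% (34.7 to 36.6). From 10 to 50 kb there were 11507 and 9559, a share of 45.4% (44.7 to 46.1), and from 50 to 200 kb 8188 and 6882, a share of 45.7% (44.9 to 46.5). Relative to the whole list, the 15 µM deficit was largest within 1 kb of gene ends. The share of summits inside gene bodies was 63.9% at 0 µM and 64.4% at 15 µM. Among the chromosomes the share ran from 37.9% on X (35.3 to 40.7) and 38.4% on 21 (34.4 to 42.6) to 46.6% on both 20 and 12 (44.3 to 48.9 and 45.1 to 48.1).

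**Figure D1:**
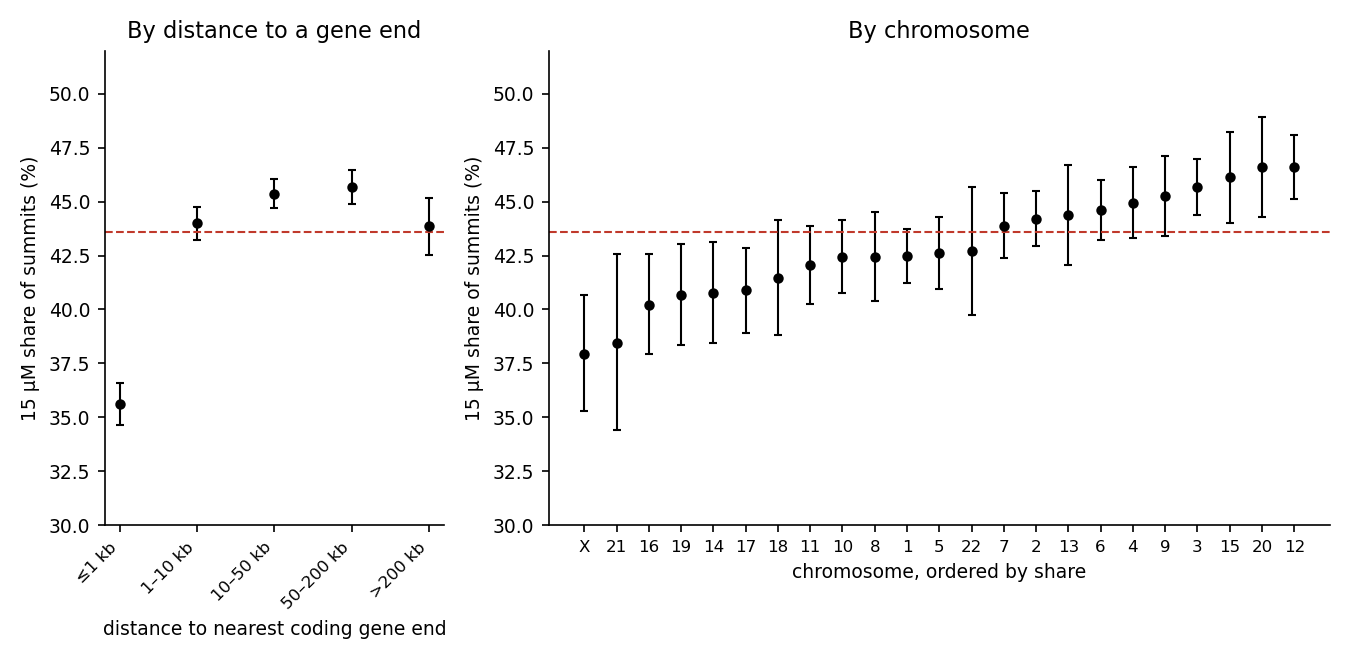
The 15 µM share of H3K27ac summits (%, y axis, which starts at 30) by distance to the nearest coding gene end (left) and by chromosome (right). Points are shares of both lists together, bars are exact 95% intervals for counting error, and the dashed line is the 43.6% over all summits. The class within 1 kb sits at 35.6%, below every other distance class and every chromosome.

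Summits found at both doses were the higher-scoring ones. The score is the authors' own value per summit, taken here to be a −log10 value of peak significance. It was ranked only within a list. Each list was split into 10 equal parts by score. In the lowest part of the 0 µM list 18.4% of summits had a 15 µM summit within 500 bp, and in the highest part 78.7%. In the 15 µM list these shares were 35.9% and 74.2%. At gene ends 36.3% of 0 µM summits were shared (35.1 to 37.5), against 64.6% of 15 µM summits (62.9 to 66.1). H3K4me1, a mark of enhancers whether active or poised, lay within 1 kb of 65.3% of shared and 65.2% of unshared 0 µM summits. At 15 µM those values were 59.1% and 58.0%. Each dose was set against its own H3K4me1 list, of 343156 summits at 0 µM and 349202 at 15 µM. No background share for random positions was computed.

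Summits were then counted within 50 kb of either end of 19974 coding genes, of which 6546 had none at either dose. The 3665 windows with at least 10 summits over both lists were compared. The fold is the 15 µM count plus 1 over the 0 µM count, scaled by 0.772, plus 1. At 15 µM, 109 windows were higher by a fold of 2 or more (2.97% of those compared), and 210 were lower, at 0.5 or less (5.73%). The median fold was 1.05. Neighbouring genes share summits, and these windows made up 72 and 93 separate loci. The counts are small. The 95% interval of the 15 µM share lay outside 43.6% for 26 of the 109 and 33 of the 210, and for 35 above and 33 below among all 3665.

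**Figure D2:**
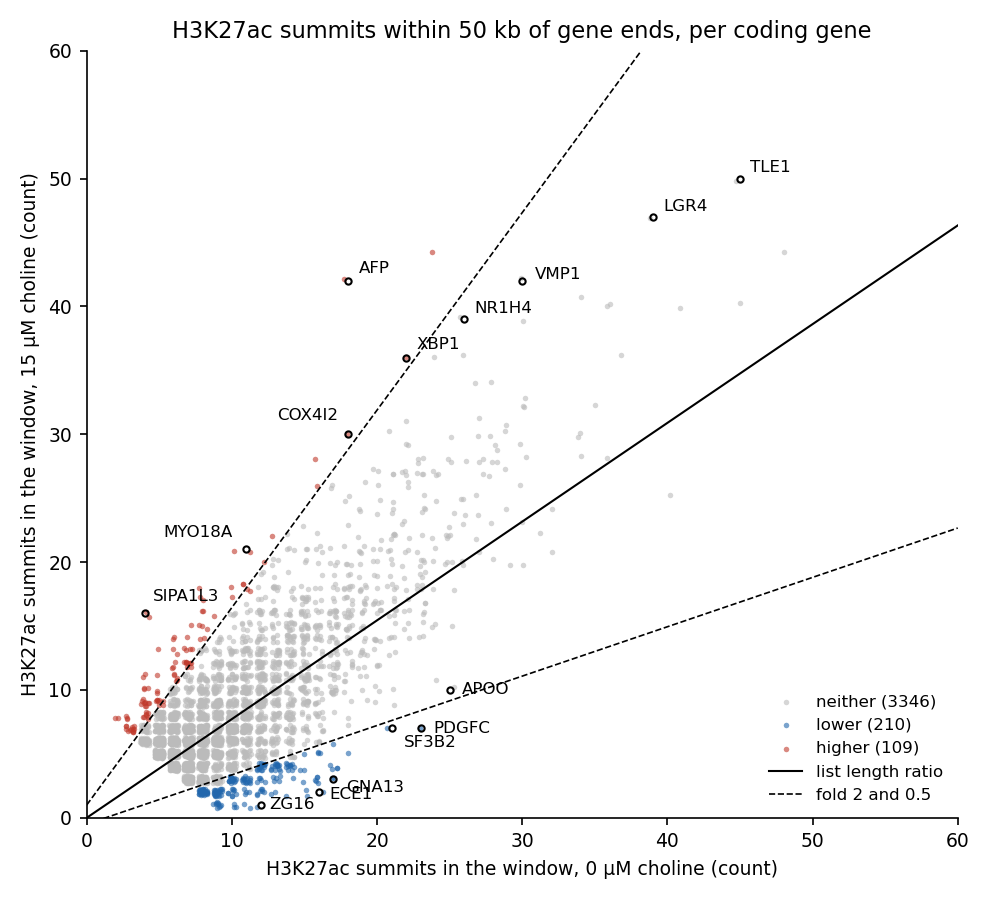
H3K27ac summits within 50 kb of each coding gene's ends at 0 µM (x axis, count) and 15 µM (y axis, count), 1 point per compared window with small random offsets, coloured by call. The solid line is the ratio of list lengths, and dashed lines are folds of 2 and 0.5. AFP, at 18 and 42, lies far above the upper line, and PDGFC, at 23 and 7, below the lower one.

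The largest gain over the scaled count was at AFP, the fetal albumin-like plasma protein of many liver cancers, with 18 summits at 0 µM and 42 at 15 µM. Only 3 and 6 of these lay within 1 kb of a coding gene end. Summits of a list within 3 kb of each other were joined into stretches, and stretches with their midpoint in the window numbered 7 at 0 µM and 6 at 15 µM. The 42 summits at AFP thus lay in about as many separate stretches as the 18, more closely packed. The same window held 41 H3K4me1 summits at 0 µM and 23 at 15 µM. It also spans coding genes ALB and AFM. Its top H3K27ac summit at 0 µM, with a score of 210.1, was the highest of that whole list. At 15 µM its top score was 82.7, where the list reached 116.5. The number of summits is not a measure of the amount of H3K27ac.

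XBP1 (chromosome 22, 28794560 to 28800569, hg38), a factor that drives chaperone genes under endoplasmic reticulum stress, had 9 stretches at 0 µM and 6 at 15 µM, although its summits numbered 22 and 36. Counted by stretches its fold was 0.927, so its direction depended on the unit counted. NR1H4, the bile acid receptor, had 12 and 13 stretches for its 26 and 39 summits. VMP1, an autophagy protein, had 14 and 9 for 30 and 42, and PROX1, a regulator of liver development, 14 and 8 for 30 and 39. The stretch folds of VMP1 and PROX1, 0.894 and 0.804, were under 1 too, as were those of MMD, at 0.586, CEACAM19, at 0.894, and LOC110384692, at 0.662, which are also among the 20 largest gains. TLE1, a corepressor, had 11 stretches at 0 µM and 17 at 15 µM for 45 and 50 summits, so there the stretches were more numerous too.

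SIPA1L3, a regulator of cell polarity (chromosome 19, 37907208 to 38208369), had 4 summits at 0 µM and 16 at 15 µM, the highest fold of the 20 largest gains at 4.16 (15 µM share 56.3 to 94.3%). MYO18A, an unconventional myosin, had 11 and 21, and DENND4A, an exchange factor for RAB GTPases, had 16 and 26. COX4I2, a subunit of cytochrome c oxidase, had 18 and 30 in a window that also holds ID1 and BCL2L1, an inhibitor of apoptosis. The window of HNRNPA3, with 22 and 31, also holds NFE2L2, the oxidative stress factor NRF2. KLB, the FGF19 and FGF21 coreceptor, had 17 and 26. EGFR, the epidermal growth factor receptor, had 36 and 40, NEDD4L, a ubiquitin ligase of ion channels, 21 and 30, and RAB8B, a vesicle GTPase, 34 and 41. Of the 20 windows, 6 reached a fold of 2. They were those of AFP, XBP1, COX4I2, DENND4A, SIPA1L3 and MYO18A.

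Over these 20 windows as a set, summits numbered 495 at 0 µM and 692 at 15 µM, whereas stretches numbered 203 and 174. Summits per stretch were 2.44 and 3.98. Stretches were more numerous at 15 µM in 5 windows, equal in 3 and fewer in 12. Summits within 1 kb of a gene end were 46 and 48, and those farther away 449 and 644. The windows were ranked on these summit counts, so the totals describe the choice. Their stretch ratio, 15 over 0 µM, was 0.857, against 0.728 for all stretches. Over all 109 higher windows, with shared summits counted in each window, stretches numbered 406 and 482. In those windows stretches were more numerous at 15 µM in 54, equal in 30 and fewer in 25. Fewer stretches were thus not a feature of the higher windows as a set.

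The largest deficit was at PDGFC, a ligand of platelet-derived growth factor receptors (chromosome 4, 156760454 to 156971799), with 23 summits at 0 µM and 7 at 15 µM in 10 and 5 stretches. ECE1, which cleaves the endothelin precursor, had 16 and 2 in 5 and 2 stretches, none of them within 1 kb of a gene end. GNA13, a subunit of a heterotrimeric G protein, had 17 and 3 in 6 and 3 stretches. VCL, the adhesion protein vinculin, had 13 and 3, and AHR, the xenobiotic receptor, 17 and 6. In these windows, unlike those of the gains, both summits and stretches were fewer at 15 µM.

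Many of the other deficits lay in gene-rich places. The B3GAT3 window, with 17 and 3, spans 12 coding genes, among them EEF1G and MTA2. That of H1-5, with 16 and 3, also spans 12, nearly all histone genes, and 12 of its 16 summits at 0 µM lay within 1 kb of a gene end. AURKB, a mitotic kinase, had 14 and 3. ZG16 had 12 and 1 in a window with KIF22, a mitotic kinesin, and MAZ, a zinc finger factor. NUP210L had 18 and 5 beside CRTC2, a CREB coactivator of hepatic glucose production, and RPS27. TOM1L2 had 13 and 3 beside SREBF1, the activator of fatty acid synthesis. FANCA, of DNA crosslink repair, had 16 and 5, and ATP5PD, a subunit of ATP synthase, 16 and 5. SF3B2, a splicing factor, had 21 and 7, and CDC42EP1, a CDC42 effector, 16 and 5. Counted by stretches, the folds of SF3B2, CDC42EP1, FANCA, TOM1L2 and ZNF608 were 1.08, 1.28, 1.08, 1.26 and 1.31, on the other side of 1. Of the 20 windows with the largest deficits, 18 were at 0.5 or less, the exceptions being those of APOO and ZNF608. The 20 held 332 and 87 summits in 127 and 63 stretches.

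No compared window was empty at either dose. Below the minimum of 10 summits, the fullest windows that were empty at 15 µM were those of NSD3, a histone methyltransferase, and TOP2A, the topoisomerase of dividing cells, with 9 summits each at 0 µM. CDR2, LRRC56, PARN, PRRT2 and TTLL7 had 8. The fullest window empty at 0 µM, that of JAZF1, had 4 at 15 µM. A count of 0 against so few leaves the difference poorly measured.

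Lower calls followed gene density. Where 7 or more coding genes lay within 50 kb, the gene itself included, 108 of 653 compared windows were lower (16.5%) and 5 were higher (0.766%). Where the gene stood alone, 6 of 305 were lower (1.97%) and 5 higher (1.64%). Genes under 10 kb long were lower in 11.9% of windows, and those from 50 to 200 kb in 3.22%. Windows rich in summits went the other way. With 40 or more summits over both lists, 0 of 170 windows were lower, 6 were higher and the median fold was 1.33, against 129 of 1625 lower and a median fold of 0.937 for windows with 10 to 14. By chromosome, lower windows were 13.7% of those on 17, 10.7% on 16 and 10.4% on 11, against 0.820% on 3 and 0 of 40 on 13. On 22, higher and lower windows were each 8.33%. Neighbouring genes share summits in all these counts.

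In the 210 lower windows, summits near gene ends numbered 320 at 0 µM and 79 at 15 µM, and those farther away 773 and 199. The ratios, 0.247 and 0.257, were alike. In the 109 higher windows the near counts were 87 and 123 and the far counts 436 and 879, a ratio of 1.41 against 2.02. Both sets were called on these same summits, so low and high ratios describe the choice. In the 3346 compared windows called neither, the near ratio was 0.684 and the far ratio 0.885. With distal summits alone, those over 2.5 kb from any gene end, scaled by their own ratio, 73 windows were higher and 61 lower of 1852. Higher windows were then 54.5% of calls, where they were 34.2% with all summits.

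Gene starts were taken for the 15812 of 19974 coding genes that matched a RefSeq promoter entry by symbol. A start had a summit when 1 lay within 1 kb, and lacked it when none lay within 2 kb. At 0 µM 4539 starts had a summit, and 2060 of them lacked one at 15 µM (13% of all starts and 45.4% of those with a summit). At 15 µM 2515 had a summit, and 262 of them lacked one at 0 µM (1.66% and 10.4%). Within both totals, 2121 starts had a summit within 1 kb at both doses. Another 986 starts fell between the 1 kb and 2 kb limits. The start counts were not scaled for list length. With the lists cut to equal length by score rank, 1695 starts had a summit at 0 µM only and 366 at 15 µM only.

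The missing share climbed with promoter GC content. Of starts with a 0 µM summit, 29.1% lacked one at 15 µM where GC was under 45% (22.5 to 36.5), 44.5% where it was 55 to 65% (42.0 to 47.0), and 50.7% at 75% or more (46.5 to 54.95). GGGCGG was found in 73.0% of promoters with a summit at 0 µM only (71.0 to 74.9), in 67.6% of those with both (65.5 to 69.6) and in 58.5% of all promoters. TATAAA was found in 5.15%, 6.55% and 9.64% of the same sets, and CCGGAAGT in 12.2%, 11.1% and 6.20%. The 262 promoters with a summit at 15 µM only held GGGCGG in 68.7% (62.7 to 74.3), TATAAA in 7.25% and CCGGAAGT in 7.25%. Median GC was 65.7% both for 0 µM only and for 15 µM only, and 63.3% for both doses. A higher GC content was thus not particular to summits missing at 15 µM. TGACGTCA was in 4.13% of promoters with a summit at 0 µM only, 3.30% with both, 1.15% with 15 µM only (0.237 to 3.31) and 2.59% of all. CCAAT stood at 36.5%, 38.1% and 36.3% for 0 µM only, both and all, and CACCC at 62.9%, 60.3% and 62.9%. In all promoters, CACGTG was found in 8.87%, TGANTCA in 5.76%, the NRF1 motif in 1.76% and the HNF1 motif in 0.0506%. A match is a match of letters and not a measured binding site.

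**Figure D3:**
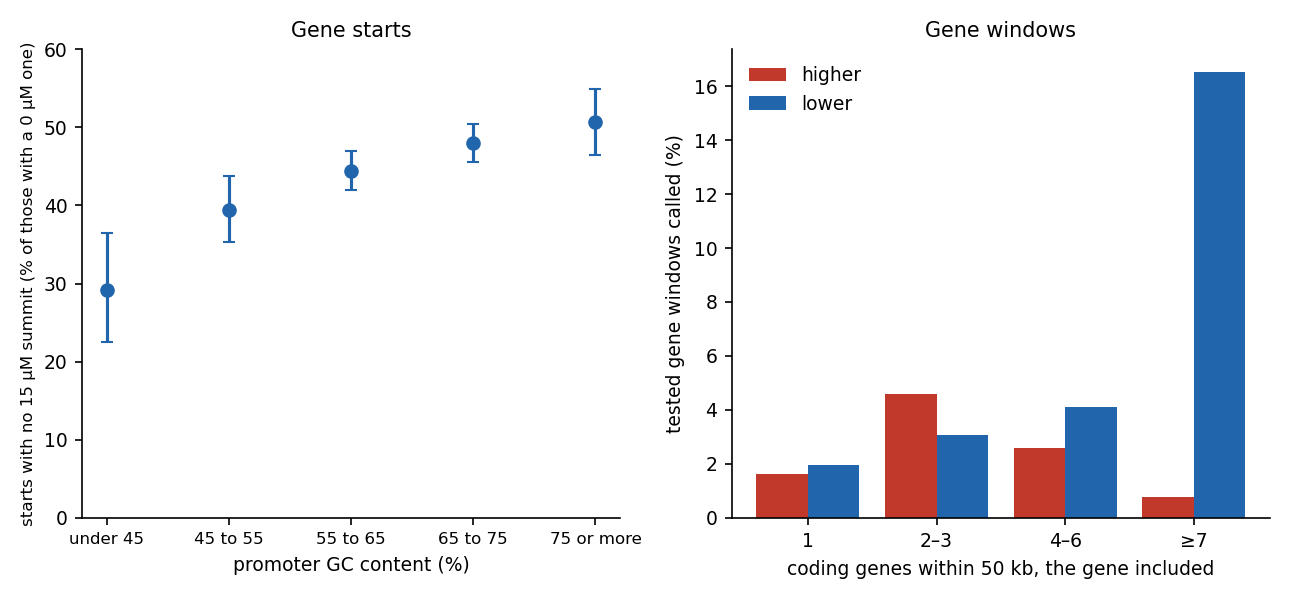
Left, gene starts with a 0 µM summit and none at 15 µM (% of starts with a 0 µM summit, points with exact 95% intervals) by promoter GC content. Right, compared gene windows called higher or lower at 15 µM (%, bars from 0) by the number of coding genes within 50 kb. The left points climb from 29.1% to 50.7%, and the lower bars from 1.97% to 16.5%.

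Among the promoters printed above, TUBA1B had its summit at 0 µM with a score of 52.1, and the nearest 15 µM summit lay 70794 bp from its start. NELFA scored 55.8, with the nearest 15 µM summit at 127231 bp, and CTR9 48.0, with the nearest at 105834 bp. DUSP1, at 52.8, was a near miss, since a 15 µM summit lay at 2589 bp. Of the promoters with a summit at 15 µM only, SRRM1 scored 21.5 with the nearest 0 µM summit at 62347 bp. ID1, at 23.2, and NQO1, at 22.03, had 0 µM summits at 2159 and 3832 bp, just beyond the limit. The first 3 starts thus stood far from any 15 µM summit, whereas only SRRM1 did so in the other direction among the 3 printed.

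Genes were next grouped into 50 families by symbol, and each distinct summit near any member was counted once. For 5 families (10%) the interval of the 15 µM share lay wholly below the 43.6% over both lists, and for 0 (0%) above it. Summits within 50 kb of any coding gene end had a share of 42.9% (42.4 to 43.3), itself below 43.6%. Against that share the chaperone interval would no longer lie wholly below. The interval of the Wnt, frizzled and LGR family (43.3 to 54.3) would lie just above. The zinc finger genes, many of which encode repressors with a KRAB domain, had 790 summits at 0 µM and 497 at 15 µM, a share of 38.6% (35.9 to 41.3). Of their 58 compared windows 0 were higher and 6 lower, among them ZNF784 and ZNF865, both with 13 and 4. Over all compared windows 2.97% were higher and 5.73% lower, and each family had few compared windows. DNA replication and cell cycle genes had 594 and 388 (39.5%, 36.4 to 42.6), with 0 higher and 3 lower of 37 windows, near the 5.73% of all windows. These were the windows of AURKB, KIF22 and MCM7, the last a subunit of the replicative helicase, with 10 and 3.

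Chaperones had 322 and 202 (38.5%, 34.4 to 42.9), with none of 24 windows called. HSP90AA1, the inducible HSP90, had 6 and 0. Translation factors had 228 and 136 (37.4%, 32.4 to 42.6), with EEF1G, at 9 and 2, the single lower window of 11. SOX factors had the lowest share, 63 and 29 (31.5%, 22.2 to 42.0). SOX12 had 11 and 3 and SOX13 10 and 3, both lower, and SOX9, a factor of bile duct and progenitor cells, had 4 and 0. With distal summits alone, which are fewer, the interval of every one of these 5 families included the 45.1% of all distal summits. The translation factor share was then 46.1%, above it. The scaled folds of the other 4 stayed under 1, at 0.790 for chaperones, 0.795 for SOX factors, 0.879 for DNA replication and cell cycle genes and 0.906 for zinc finger genes. Counted by stretches, all 5 had shares under the 42.1% of all stretches, from 36.4% for SOX factors (22.4 to 52.2) and 36.8% for translation factors (30.4 to 43.6) to 40.1% for DNA replication and cell cycle genes. On these fewer units the interval lay wholly below for the zinc finger genes (37.1%, 33.7 to 40.7) and included the background for the other 4.

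**Figure D4:**
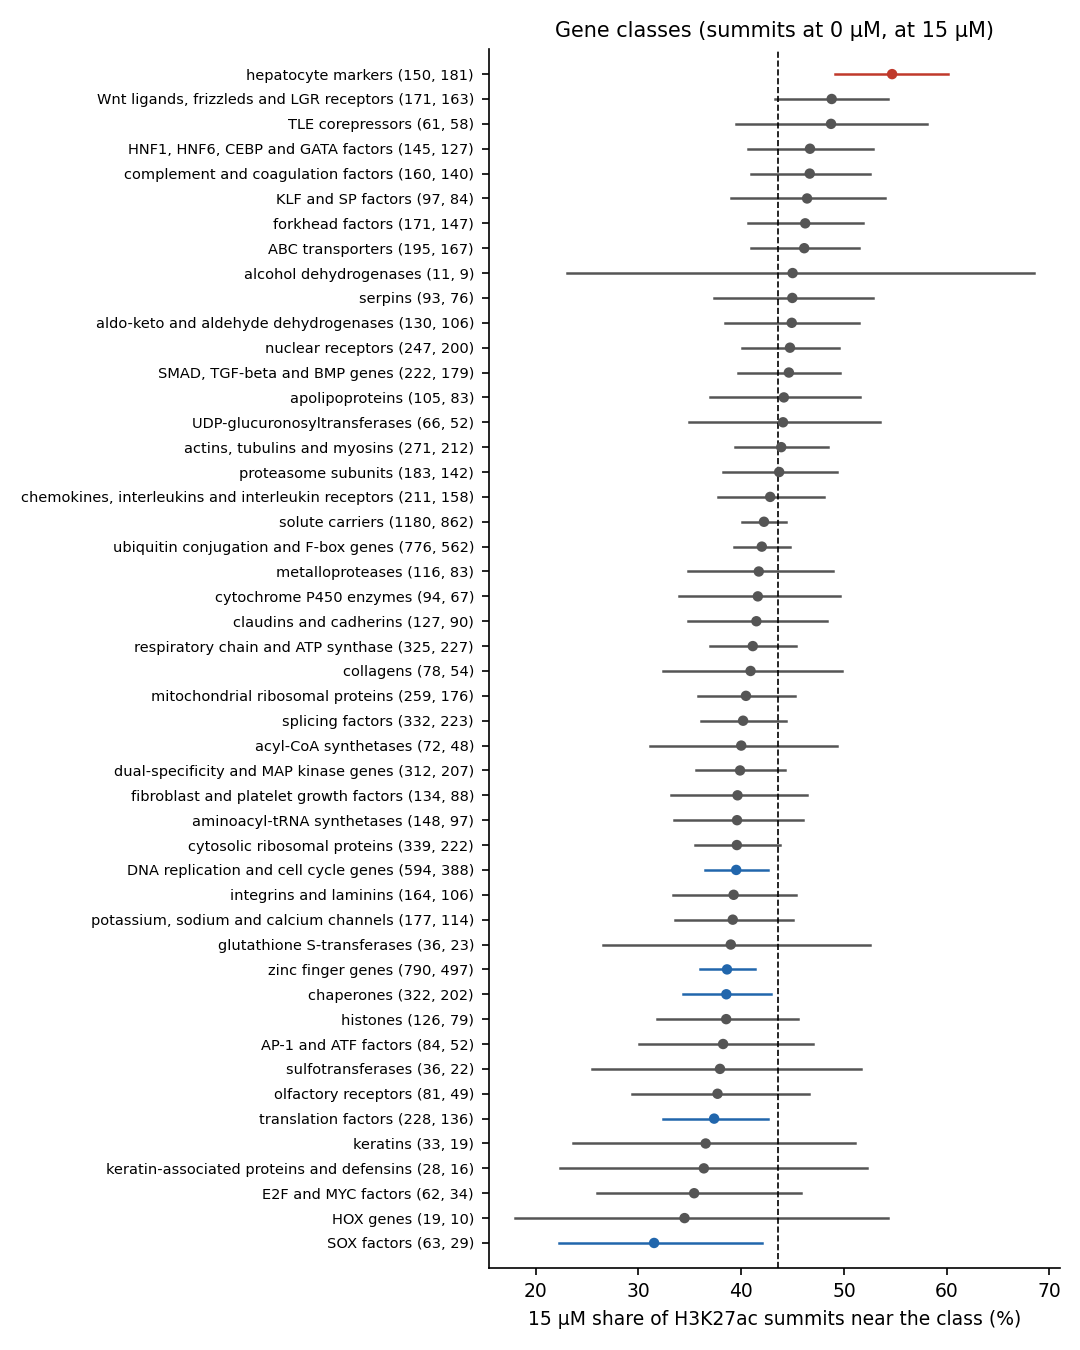
The 15 µM share of H3K27ac summits (%, x axis) within 50 kb of the genes of each family and of the hepatocyte markers, for the classes shown, each with at least 20 summits. Points are shares with exact 95% intervals, counts at 0 and 15 µM stand in brackets, and the dashed line is 43.6%. Families below the line with their whole interval are blue, and the hepatocyte markers, at 54.7%, are red.

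The hepatocyte markers, which are not 1 of the 50 families, lay above, with a share of 54.7% (49.1 to 60.1). Of 10 compared windows 3 were higher, ALB and AFP among them, and 0 lower, against 2.97% and 5.73% of all windows. ALB and AFP are neighbours with overlapping windows. Without them, an alternative added after seeing the data, the markers had 124 and 129 summits, a share of 51.0% (44.7 to 57.3), still above. By stretches they had 59 and 44, a share of 42.7%, against 42.1% for all stretches, so the excess of summits did not come with an excess of separate stretches. FOXA2, a pioneer factor, had 13 and 18. APOB, the protein of very low density lipoprotein, had 12 and 6.

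Families above 43.6% had intervals that included it. Wnt ligands, frizzleds and LGR receptors had 171 and 163 (48.8%, 43.3 to 54.3), with LGR4 at 39 and 47, FZD5 at 15 and 18 and ZNRF3, a ligase that removes frizzleds, at 24 and 25. Their share of distal summits, 51.5% (45.3 to 57.7), had the only family interval wholly above the 45.1% of all distal summits. KLF and SP factors had 97 and 84 (46.4%, 38.98 to 53.96). Of their 7 windows 2 were higher, those of KLF5 and KLF6, against 2.97% of all windows. HNF1, HNF6, CEBP and GATA factors had 145 and 127 (46.7%, 40.6 to 52.8), with CEBPA at 21 and 24 and ONECUT2 at 19 and 10. Apolipoproteins stood near the background at 105 and 83 (44.1%, 36.9 to 51.6), with APOE at 24 and 27.

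Histone genes split by cluster. Of their 59 compared windows 16 were lower and 0 higher, against 5.73% and 2.97% of all windows. The 16 are neighbours in 1 chromosome 6 cluster with overlapping windows and shared summits, so they do not count as separate observations. H1-5, H2AC16, H3C11 and H4C13 each had the same 16 and 3, whereas H1-2, in the other chromosome 6 cluster, had 14 and 19. As a family they had 126 and 79 distinct summits (38.5%, 31.8 to 45.6), an interval that included the background. At gene starts, cytosolic ribosomal protein genes lacked the summit at 15 µM in 33 of 57 cases (57.9%, 44.1 to 70.9). That interval included the 45.4% over all starts. Zinc finger genes lacked the summit in 76 of 138 (55.1%, 46.4 to 63.5). The HNF1, HNF6, CEBP and GATA factors lacked it in 0 of 4 (0 to 60.2%) and the hepatocyte markers in 0 of 5 (0 to 52.2%), too few to tell from the share over all starts.

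Of 2005 compared lncRNA windows 90 were higher (4.49%) and 66 lower (3.29%), where the coding windows had 2.97% and 5.73%. The ranking of these windows left out lncRNAs with LOC symbols and those within 200 kb of the 40 named coding windows. Neighbours within 200 kb of a higher-ranked lncRNA were left out too. Among the rest, the largest gains were at LINC00513, with 21 and 30, and the SLC35D2-HSD17B3 readthrough locus, with 20 and 28. LINC01816 came next, with 15 and 24. DST-AS1, antisense to the cytoskeletal linker gene DST, had 14 and 2. Of 201 microRNA hairpin windows 6 were higher (2.99%) and 11 lower (5.47%), close to the coding windows. MIR21, at the end of VMP1, had 23 and 35, and MIR29B1, on chromosome 7, had 14 and 26, a fold of 2.29. MIR122 had 17 and 21. MIR33B, inside SREBF1, had 14 and 4, and MIR320C1 15 and 5. These hairpins and lncRNAs were picked with their values in view, and their summits cannot be told apart from those of the host or neighbouring genes.

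Chromosome bands were taken as consecutive 5 Mb bins. Of 533 bins with at least 20 summits, 1 was higher by 1.5-fold or more (0.188%) and 50 were lower by as much (9.38%). The higher band was chromosome 12 from 100 to 105 Mb, with 122 summits at 0 µM and 144 at 15 µM (15 µM share 47.9 to 60.2%). It holds NR1H4. Next came bands short of the limit, among them chromosome 22 from 25 to 30 Mb, with XBP1, at 112 and 127, and chromosome 20 from 30 to 35 Mb, with COX4I2 and BCL2L1, at 123 and 138. In both, the interval of the share lay above 43.6%.

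The best measured low band was chromosome 14 from 100 to 105 Mb, with 89 and 29 summits (24.6%, 17.1 to 33.4). It holds DYNC1H1, the dynein heavy chain, at 9 and 2, TRAF3, a regulator of NF-κB, at 10 and 3, and HSP90AA1. Chromosome X from 120 to 125 Mb had 43 and 12 (21.8%, 11.8 to 35.0), with XIAP, an inhibitor of caspases, at 6 and 1. Chromosome 16 from 25 to 30 Mb, with ZG16 and KIF22, had 39 and 14. The lowest fold, 0.354, was at the end of chromosome 12, from 130 to 135 Mb, with 17 and 4, where ZNF140 had 4 and 0.

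Low bands adjoined each other in 8 places. The longest run was chromosome 16 from 15 to 30 Mb, 3 bands with 111 and 43 summits. The most gene-rich was chromosome 19 from 5 to 15 Mb, with 276 coding genes and 118 and 49 summits. Others lay on chromosome 14 from 95 to 105 Mb, with 110 and 39, and chromosome 2 from 25 to 35 Mb, with 85 and 33. Runs on chromosome 18 from 25 to 35 Mb and X from 35 to 45 Mb, each with 84 and 37, held only 29 and 35 coding genes, so gene-rich bands were not the sole ones. The compared bands were split into 4 sets by their number of coding genes. In the set with 43 to 202 genes per band the ratio of summits was 0.727, and in the others 0.785 to 0.812.

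**Figure D5:**
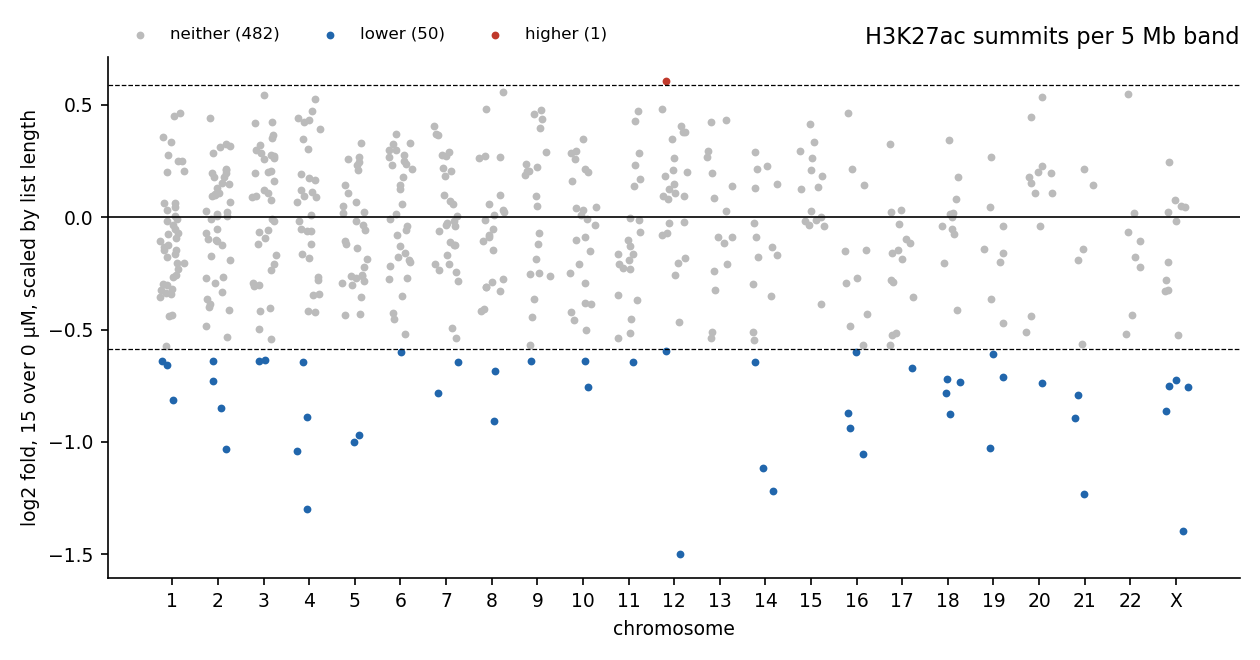
The log2 fold of H3K27ac summits at 15 over 0 µM, scaled by list length (y axis), for each 5 Mb band with at least 20 summits, grouped by chromosome (x axis) with random sideways offsets. Dashed lines mark folds of 1.5 and 1/1.5. A single band, on chromosome 12, lies above the upper line, and 50 lie below the lower one.

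The packing seen at AFP was also a feature of the whole lists. Joined within 3 kb, the 0 µM summits formed 20807 stretches and the 15 µM summits 15141, or 1.82 and 1.94 summits per stretch. Stretches of 5 or more numbered 1062 and 1046, nearly equal although the 15 µM list was shorter, and those of 10 or more 71 and 119. Stretches of 5 or more took 17.8% of summits at 0 µM and 24.1% at 15 µM. Single summits were 58.5% and 58.7% of stretches.

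Large stretches nearly always had at least some summit of the other list inside them or close by. Of those with 5 or more summits, 98.1% at 0 µM and 99.8% at 15 µM had such a summit inside or within 500 bp. Among single summits these shares were 28.7% and 46.3%. A longer stretch has more room for such a summit, so the shares do not measure the presence of large stretches at both doses. The largest at 0 µM lay at NRP1, a semaphorin and VEGF coreceptor, with 28 summits over 48.7 kb and 19 in the 15 µM list. A stretch at GPC3, a fetal glypican of liver cancers, had 15 and 4. The largest at 15 µM lay at SMIM36 and SPTBN1, a spectrin, with 21 summits each against 11 and 9. VMP1 had 20 against 8, and ADGRG6, an adhesion receptor, 16 against 3.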

How the data were processed

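H3K27ac and H3K4me1 ChIP-seq summit lists of Huh7 cells at 0 and 15 µM choline were used, 1 library for each mark and dose. Per the submitters' processing notes, the genome build was hg38 and the tools included MACS2, Bowtie, deepTools and Picard. The authors deposited 1 summit per line with a score in the layout of MACS2, taken here to be the −log10 of a significance value. Whether that is p or q, the calling thresholds and any use of input in calling are not given in the sources used here. Read depth is unknown, and list length depends on it, so counts were scaled by the ratio of list lengths, 0.772.

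Gene positions and promoters came from RefSeq tables of GRCh38.p14, without exons, so exon, intron and UTR positions were not used here. Bands were 5 Mb bins, because no cytogenetic table was used. Gene windows, families, gene starts, stretches and promoter motifs were counted with Python 3.11.15, numpy 2.4.6, pandas 2.3.3, scipy 1.17.1 and matplotlib 3.10.9, and the counting was checked on simulated lists. No p-value between doses was computed.

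The genes named are the 20 windows with the largest positive and the 20 with the largest negative difference (15 µM count minus scaled 0 µM count), 1 per 200 kb, up to 8 windows empty at 1 dose, the 3 highest and 3 lowest members of each family described, 2 genes for each of the 8 highest and 8 lowest bands, and the 6 highest-scoring starts with a summit at 1 dose only. The rule asked for compared windows empty at 1 dose, and as there were none, those under the minimum were taken. Genes sharing a named window, large stretches, microRNAs and lncRNAs were chosen after their values were seen. Family symbol patterns were tightened after the files were seen, to drop accidental matches. Members and lists were chosen with earlier results of these data known. Alternatives covered window size, minimum, list length, stretches and distal summits. Some genes and 1 gene class covered by the naming rule are left out of the text and not reported here.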

Additional observations from a re-analysis of the deposited data

Results flagged for a closer look

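Summits also lay on unplaced or unlocalised scaffolds, which the comparisons leave out. There were 35 such summits on 7 scaffolds at 0 µM and 26 on 6 at 15 µM, and in each list 15 of them lay on 1 scaffold. They were singled out as signal in lines outside the main measurement. No gene was assigned to them, and the cause was not tested.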

How the results depend on the processing

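No paired analysis was possible because each dose had 1 library. The list ratio was 0.725 for scores of 10 or more and 0.728 for stretches. The shared part of the 0 µM list was 22.3% within 200 bp, 52.1% within 1000 bp, 64.4% within 2000 bp and 44.0% at equal length (38.7% as reported), and that of the 15 µM list 28.9%, 68.2%, 81.8% and 45.3% (50.7%). Higher windows numbered 14 by stretches, 689 with no minimum and 37 with a minimum of 20 summits (109). Lower windows numbered 58 within 20 kb, 421 within 100 kb, 7 by stretches, 61 for distal summits, 2375 with no minimum and 14 with a minimum of 20 (210). Stretches left 1137 windows to compare. At equal length, 74 of the 109 and 123 of the 210 were called again. Within 20 kb 34 and 39 were called again, within 100 kb 46 and 140, and with gene bodies included 100 and 201. For distal summits 49 and 40 were called again, and by stretches only 4 and 2. Higher calls were 55.7% of calls within 20 kb, 19.96% within 100 kb, 66.7% by stretches and 72.5% with a minimum of 20, against 34.2%. Higher bands numbered 27 at 2 Mb, 0 at 10 Mb, 2 at equal length, 0 by stretches and 2 for distal summits, and lower bands 112 at 2 Mb, 19 at 10 Mb and 18 by stretches. Families above numbered 1 and families below 0 for distal summits, and families below 1 by stretches. Starts with a summit at 15 µM only numbered 164 when absence was required within 10 kb. Summits per stretch were 1.19 and 1.22 when joined within 1 kb, 2.65 and 2.77 with a wider joining distance, and 1.66 at equal length for 0 µM (1.94 for 15 µM). Named window folds on the other side of 1 by stretches were 0.927 for XBP1, 1.08 for SF3B2, 1.28 for CDC42EP1, 1.08 for FANCA, 1.26 for TOM1L2, 1.31 for ZNF608, 0.894 for VMP1 and CEACAM19, 0.804 for PROX1, 0.662 for LOC110384692 and 0.586 for MMD, and the translation factor share was 46.1% for distal summits. At equal length, within 20 kb and within 100 kb, 40 of 40 named windows had the reported direction, for distal summits 39 and by stretches 29. The cause of these differences was not tested.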
